A study of Mus musculus with 5 samples.

Results

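Tofacitinib, an inhibitor of JAK kinases, was compared with vehicle in mouse embryonic fibroblasts (MEFs) that carry a constitutively active STING. All cells were STING-/- MEFs, labelled as primary cells and reconstituted with the STING variant R284S, and the controls carried the same deletion and the same variant. Treatment lasted 9 hours, with Vehicle, Tofacitinib or 1 of 3 further agents, Compound C, Doxorubicin and GSK 690693, and total RNA from each treatment went onto 1 Affymetrix array. Where 5 values are given for a gene they stand in the order vehicle, Compound C, doxorubicin, GSK 690693, tofacitinib, and 3 values for the other compounds keep that order. The labels describe the added agents together as AMPK inhibitors. The sources used here give neither the doses nor the promoter or vector behind the variant.

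The comparison uses 2 of the 5 arrays, tofacitinib minus vehicle, on the log2 signal, where a difference of 1 is 2-fold. It is described over 12311 of 22180 genes with a probe set of 1 symbol. A gene entered through its probe set of highest mean, provided that its top value over the 5 arrays was no lower than the median, on the array in question, of all probe sets with 1 symbol. With 1 array per condition no difference has a replicate, an error or a test. Every value below describes these arrays only, and in such bulk RNA fewer cells of a kind and less RNA per cell cannot be told apart.

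Type I interferon binds its receptor chains Ifnar1 and Ifnar2, the JAK kinases Jak1 and Tyk2 phosphorylate STAT transcription factors, and STAT2 joins IRF9 in the complex ISGF3, which binds interferon response elements. Cytokines of the interleukin-6 family signal through gp130, the product of Il6st, to Jak1, Jak2 and STAT3, which binds gamma-activated sites. STING lies upstream: it activates TBK1 and the transcription factor IRF3, which can switch on interferon and a group of early antiviral genes without JAK kinases, while interferon that leaves the cell acts back on it through JAK and STAT.

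Of the 14 fibroblast markers, 13 lay at or above the array median with vehicle, and the log2 of their summed signal was 14.58 with vehicle and 14.6 with tofacitinib. Of 12 macrophage markers 2 reached that median, Cd14 and Cd68, and the pan-leukocyte marker Ptprc read 3.86 with vehicle and 3.82 with tofacitinib. The summed macrophage signal was 8.61 and 8.62, and the summed lymphocyte signal, with 0 of 8 markers past the filter, was 7.29 and 7.14. Past the filter also lay 5 of 8 epithelial markers, 2 of 9 endothelial markers and 7 of 12 neural, muscle and fat markers. Passing it therefore does not by itself tell cell types apart. With vehicle the marker medians were 10.17 for fibroblast, 5.33 for epithelial and 5.36 for neural, muscle and fat markers. The probe set of Sting1 read 5.12 with vehicle and 5.07 with tofacitinib, against 5.13, 5.25 and 5.11 with the other 3 compounds, below the filter on each array. The labels name neither the species of the variant nor the deleted exons, so that signal does not check the genotype. The median signal of the described genes was 7.39 with tofacitinib and 7.22 with vehicle, which are the highest and the middle of the 5 arrays. The median difference over all 12311 genes was 0.09 with quartiles of -0.09 and 0.26, and the gene lists below are read against that median. Centring each array on the median signal of its described genes takes the same amount, 0.17, off every difference. The median over all genes is then -0.08.

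With tofacitinib, 51 genes read at least 2-fold lower than with vehicle, 0.414% of those described, and 6 read at least 2-fold higher, 0.0487%. The 2-fold counts were 87 and 1 after centring each array on the median signal of its described genes. They were 34 lower and 155 higher when the median of the 3 other compound arrays took the place of vehicle. At 1.5-fold the counts were 246 lower (2.0%) and 328 higher (2.66%). The 1.5-fold split depends on the scaling between the arrays: it was 600 lower and 67 higher after centring, 298 and 201 after quantile normalization, and 353 and 149 after loess. Among the 51 genes, 31 stood on the lists of interferon genes, or 60.8%, where 115 of all 12311 genes did, or 0.934%. Another 5 stood only on the STAT3 or JAK-STAT lists, and 15 on neither. In 40 of the 51 (78.4%) tofacitinib was the lowest of the 5 arrays, beside 10.9% of all genes. The choice of the 51 genes contributes to that position. The vehicle signal of the 51 genes ran from 5.57 to 12.05, so they are not drawn only from dim probe sets.

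**Figure D1:**
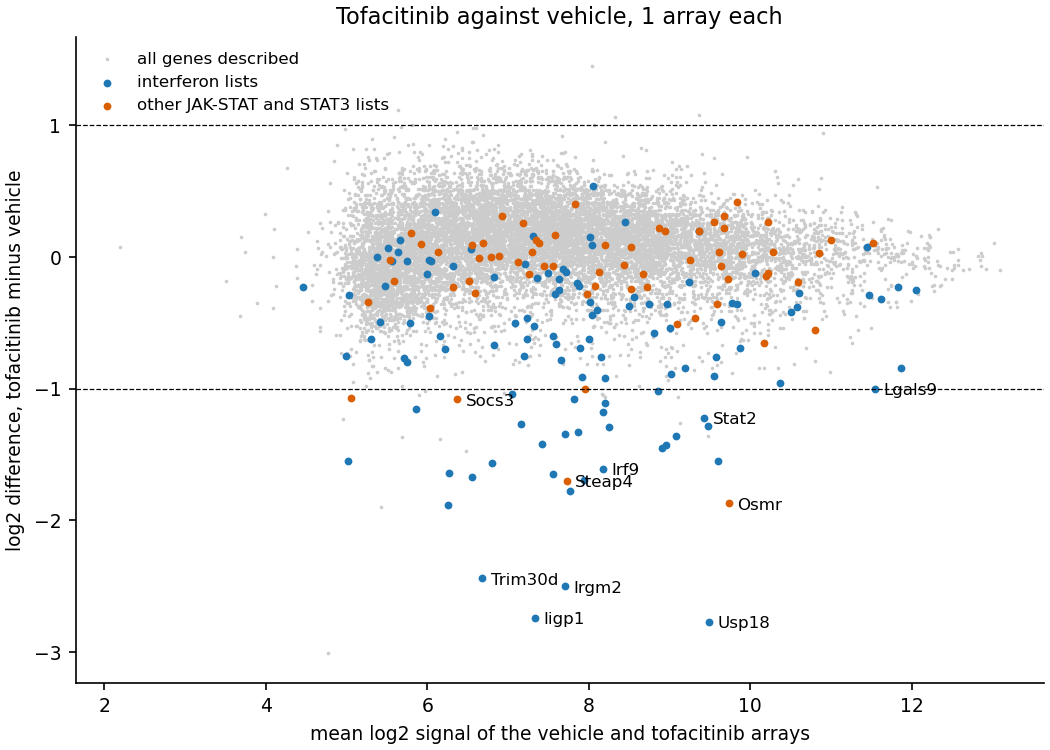
Log2 difference, tofacitinib minus vehicle, against the mean log2 signal of the 2 arrays, with 1 point per gene. Dashed lines mark 2-fold, and the genes below the lower line are mostly members of the interferon lists (blue) or the STAT3 and JAK-STAT lists (orange).

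The components of the pathway itself differed unevenly. Usp18, which sits on the interferon receptor chain Ifnar2 and blocks JAK1 there, read 10.87 with vehicle and 8.1 with tofacitinib, 6.82-fold lower. The other compound arrays gave 10.56, 10.84 and 10.25 for Usp18. All 4 arrays without tofacitinib therefore lay above 10, and the tofacitinib array stood apart below them. The ISGF3 genes Irf9 and Stat2 were lower too. Irf9 read 8.98, 8.26, 8.07, 8.66 and 7.37 on the 5 arrays and was 3.05-fold lower with tofacitinib than with vehicle. Stat2 read 10.04, 9.99, 9.67, 9.73 and 8.82 in the same order, a signal 2.33-fold below vehicle. In both genes the tofacitinib value was below all 4 others. Jak3 had no probe set of 1 symbol and was not analysed here.

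The kinases showed no such difference. Jak1 read 10.26 with vehicle and 10.3 with tofacitinib, Jak2 8.84 and 9.04, and Tyk2 6.64 and 6.75. Among the other STAT genes Stat3, the transcription factor of the interleukin-6 family, read 10.49 with vehicle and 9.84 with tofacitinib, while the other compounds read between 10.45 and 11. Differences of Stat5a, Stat5b and Stat6 were -0.01, -0.07 and 0.2. Of the 9 kinase and STAT genes described, 3 read at least 1.5-fold lower and 0 higher, and their median difference was -0.01.

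Among 15 receptor chains that couple to JAK kinases, 1 read at least 1.5-fold lower and 0 higher, and the median was -0.07. That gene was Osmr, the oncostatin M receptor chain that pairs with gp130. Osmr read 10.67 with vehicle and 8.8 with tofacitinib, against 10.5, 10.72 and 10.53 with the other 3 compounds. The 4 arrays without tofacitinib were within 0.22 of each other, and tofacitinib was 3.66-fold below vehicle. Its partner Il6st read 10.26 and 10.12, a difference of -0.14, and the second lowest chain was Il13ra1 at -0.46. The interferon receptor chains Ifnar1, Ifnar2, Ifngr1 and Ifngr2 differed by 0.27, -0.07, 0.22 and 0.27.

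Of 19 inhibitors of JAK-STAT signalling, 3 read at least 1.5-fold lower and 0 higher, with a median of 0.0. Beside Usp18 these were Socs3 and Nmi. Socs3, the suppressor of gp130 signalling that STAT3 induces, read 6.91 with vehicle and 5.83 with tofacitinib, against 7.44, 6.01 and 7.12 with the other 3 compounds. The doxorubicin value of Socs3 was nearly as low as that with tofacitinib. A second probe set of Socs3, dim at 3.96 with vehicle, differed by -0.55 where the one used here differed by -1.08. Nmi, an interferon-induced partner of STAT proteins, is not a clear inhibitor and also stands on the interferon-stimulated list. It was 0.6 lower on the log2 scale. Socs1, which suppresses interferon signalling, read 5.76 and 5.73, and Cish, a target of STAT5, differed by -0.34. The phosphatases Ptpn1, Ptpn2 and Ptpn11 differed by -0.04, 0.08 and 0.22, and Pias1 to Pias4, which attach SUMO to STATs and other factors, by -0.02, 0.02, 0.31 and 0.09.

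**Figure D2:**
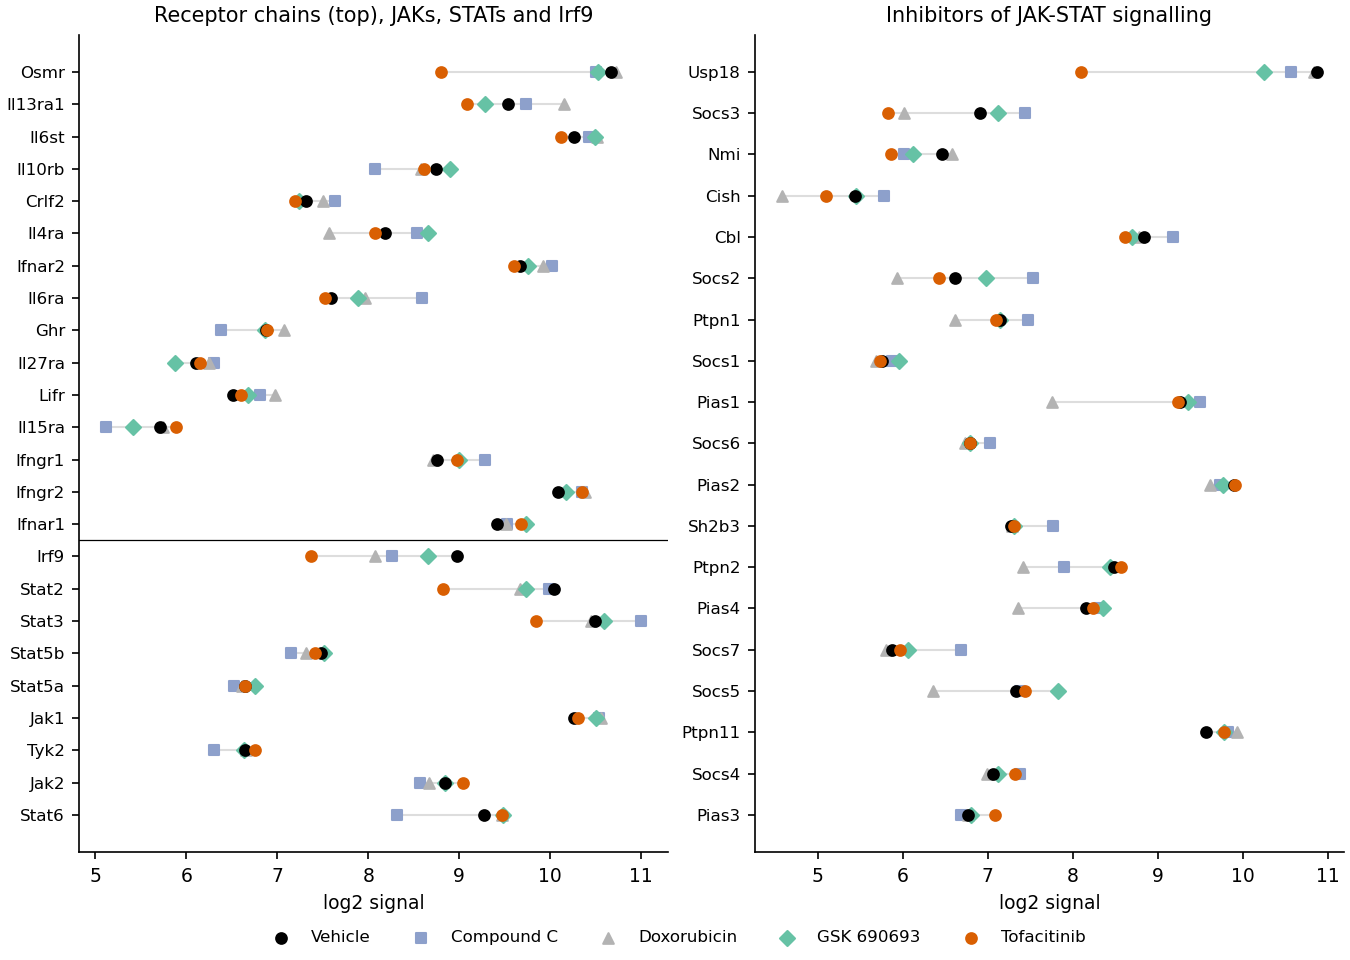
Log2 signal of each described receptor chain, kinase and STAT gene (left) and member of the inhibitor list (right) on the 5 arrays. Each array has 1 point per gene, and genes are ordered by their difference. The tofacitinib point lies far to the left of the other 4 for Usp18, Osmr and Stat2, and within 0.2 of vehicle for the JAK kinases.

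Of 13 ligands described, 3 read at least 1.5-fold lower and 1 higher. Il6, an inflammatory cytokine and a ligand of gp130, read 9.45, 9.13, 9.41, 8.43 and 8.52, so the tofacitinib and GSK 690693 values were the lowest and within 0.09 of each other. Ifna4 and Ifnl2, an interferon alpha and an interferon lambda, differed by -0.7 and -0.59 with tofacitinib. Ifna4 read 7.22, 7.45, 6.81, 6.68 and 6.52, and Ifnl2 7.57, 7.3, 6.96, 7.12 and 6.98, so doxorubicin was the lowest array for Ifnl2. Il11, another ligand of gp130, read 6.18, 5.35, 6.95, 6.29 and 6.87, with doxorubicin above tofacitinib. Ifnb1, the interferon that STING signalling is best known for, read 2.86 and 2.84 and was below the filter. Csf2 differed by 0.25 in the probe set used and by -0.47 in the other, which was dim at 4.47 with vehicle.

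The interferon-stimulated genes were the list with the most members at least 1.5-fold lower. Of 93 described, 46 read at least 1.5-fold lower (49.5%, beside 2.0% over the whole table), 24 of them at least 2-fold, and 81 lay below vehicle at all, while 0 were 1.5-fold higher. Their median difference was -0.54 where that of all genes was 0.09, and it was -0.34 against the median of the 4 other arrays and -0.26 against that of the 3 other compounds. Split by vehicle signal into 3 sets of 31, the medians were -0.52 in the dimmest, -0.62 in the middle and -0.54 in the brightest set, so the difference was of like size across signal levels. The genes of the interferon-gamma type form a separate list with 22 members described. Here 9 read at least 1.5-fold lower, 0 read higher, and the median was -0.5.

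Next to Usp18 among the genes named by rule came Iigp1 and Irgm2, immunity-related GTPases. Iigp1, which attacks the vacuoles of intracellular parasites, read 8.7 with vehicle and 5.96 with tofacitinib, against 7.83, 8.53 and 7.08 with the other 3 compounds, 6.68-fold below vehicle. Irgm2, which controls such GTPases, read 8.96, 7.65, 8.4, 8.29 and 6.46 in that order. Igtp of the same family read 8.38, 7.81, 8.81, 7.88 and 6.73, and Irgm1, named after its value was seen, 9.1, 8.43, 8.88, 8.94 and 8.52. Tofacitinib gave the lowest of the 5 values in Iigp1, Irgm2 and Igtp, more than 1 on the log2 scale below the next array in each, but not in Irgm1. The guanylate-binding proteins were less separated. Gbp7 read 10.37 with vehicle and 8.82 with tofacitinib, but Compound C at 8.97 and GSK 690693 at 8.86 lay within 0.15 of it. Gbp9 read 8.53 with vehicle, 7.53 with GSK 690693 and 7.2 with tofacitinib.

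Genes of the 2'-5' oligoadenylate synthetase family, in which enzymatically active members switch on the RNA-degrading enzyme RNase L, were lower with tofacitinib at differing sizes. Oas1b read 7.2, 6.5, 6.68, 5.79 and 5.32 over the arrays in the same order, Oas2 7.39, 6.63, 7.91, 6.38 and 5.72, and Oas1g 7.58, 7.01, 7.48, 6.23 and 6.02. Tofacitinib was the lowest array in all 3 genes, followed by GSK 690693. The antiviral GTPase Mx2 showed the same order at its lower end, with 7.09 on vehicle, 5.72 on GSK 690693 and 5.45 on tofacitinib. Xaf1, an interferon-induced promoter of cell death, read 8.79 with vehicle, 8.31, 8.63 and 8.33 with the other compounds and 7.1 with tofacitinib, and so stood apart on the tofacitinib array alone. Rnf213, a large ubiquitin ligase, did likewise with 9.63, 8.99, 9.26, 9.17 and 8.18.

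Other members were less clear. Trim30d and Trim30a, paralogs of a family in which Trim30a restrains NF-kB signalling, read 7.9 and 5.79 with vehicle against 5.46 and 4.24 with tofacitinib, yet Compound C gave the lowest value in both, 5.24 and 3.62. Ifi205, of the DNA-sensing p200 family, read 8.66 with vehicle, 9.43 with doxorubicin and 6.88 with tofacitinib, and its relative Ifi203-ps 6.85 with vehicle and 5.47 with tofacitinib. Sp100, a nuclear body protein, read 8.13 and 6.71, and its other 3 probe sets differed by -0.24, 0.21 and -1.55. With vehicle these read 2.97, 2.49 and 7.96, so only the last of them was above the array median. The Trim30, Oas1, Gbp, p200 and immunity-related GTPase genes are families of close copies, so that signal may be shared among members and the value of a single member is uncertain.

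Some of the interferon genes lay above vehicle. Of the 93 described, 11 did, led by Ifi27 at 0.54, Nt5c3 at 0.34 and Ifitm2 at 0.27, and 1 was equal. Ifi27, a mitochondrial and nuclear membrane protein, read 7.78 with vehicle and 8.05, 8.82, 8.2 and 8.32 with the compounds, so all 4 compound arrays were above vehicle. Ifih1, the cytosolic RNA sensor MDA5, read 11.4 and 11.48. These 4 genes were picked after their values were seen. So were Eif2ak2, Tlr3, Parp9, Parp12, Parp14, Cd274 and Lgals9, all on the interferon lists and at least 2-fold lower. Eif2ak2, the double-stranded RNA-activated kinase PKR, read 9.76 with vehicle and 8.4 with tofacitinib. Cd274, which encodes the immune checkpoint ligand PD-L1, read 7.79, 7.21, 7.97, 6.65 and 6.52, the last 2 being GSK 690693 and tofacitinib. Lgals9, which encodes galectin-9, read 12.05 and 11.05, exactly at the 2-fold threshold.

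The early IRF3 genes, a list of transcripts that IRF3 can induce without interferon, had a median closer to vehicle than the interferon-stimulated genes. Of 16 described, 3 read at least 1.5-fold lower and 0 higher; the median was -0.3, and it turned to 0.085 when tofacitinib was set against the median of the 4 other arrays. Cxcl10, a chemokine for T cells, read 12.47 with vehicle and 11.52, 12.16, 12 and 12.26 with the other compounds and tofacitinib. Ccl5 read 12.96, 12.95, 13.03, 12.93 and 13.07, close to the highest value on these arrays, 13.18. Ifit1, which binds viral RNA, read 11.61, 10.72, 11.13, 10.8 and 11.32. In Cxcl10 and Ifit1 tofacitinib was the compound array closest to vehicle, as in 7 of the 16 genes. Within 0.5 of vehicle lay 13 of the 16. The quartiles of all genes, -0.09 and 0.26, also lie within 0.5 of vehicle, so this count does not set the list apart. Neither count was made over all genes, so the 7 of 16 cannot be read as a trait of this list either.

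The other members varied in where tofacitinib stood among the compounds. Rsad2, the antiviral enzyme viperin, read 10.77 with vehicle and 10.39 with tofacitinib, against 9.38, 10.46 and 9.04 with the other 3 compounds. Oasl1, which restrains translation of Irf7, read 10.12, 8.46, 9.26, 8.54 and 10.0, and the chemokine Cxcl11 read 9.52, 9.19, 9.12, 7.9 and 9.39. For Oasl1 and Cxcl11 tofacitinib lay within 0.13 of vehicle, and GSK 690693 was 1.58 and 1.62 below it. Isg15, a ubiquitin-like modifier, read 10.71 with vehicle and 10.29 with tofacitinib, with the other compounds between 9.98 and 10.4. In Rsad2 and Isg15 doxorubicin was closer to vehicle than tofacitinib. Ccl4, a macrophage chemokine, read 6.94 with vehicle, 5.67, 5.9 and 5.52 with the other compounds and 7.3 with tofacitinib. In 5 members tofacitinib gave the lowest of the 5 values: Zbp1, Ifna4, Ifit3, Trim21 and Ifnl3. Over all genes described, tofacitinib was the lowest array in 10.9%. Zbp1, a sensor of Z-form nucleic acid, read 9.67, 8.92, 9.78, 9.07 and 8.24. The antiviral protein Ifit3 differed by -0.49, Trim21, an intracellular antibody receptor, by -0.46, and Ifnl3 by -0.31.

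The 2 lists share members. Of the interferon-stimulated genes, 8 also stood on the early IRF3 list, with a median difference of -0.4 and 1 of them at least 1.5-fold lower, Zbp1. The 85 that did not had a median of -0.62, and 45 of them were at least 1.5-fold lower. Over the 75 genes of those 85 whose vehicle signal lay within the range of the 8, from 5.66 to 11.61, the median was -0.66. The list medians for all 4 compounds, which share the vehicle array, differed in their order. For the interferon-stimulated genes they were -0.32, -0.1 and -0.41 with Compound C, doxorubicin and GSK 690693, and -0.54 with tofacitinib. For the early IRF3 list they were -0.395, -0.31, -0.57 and -0.3. Tofacitinib had the lowest median of the 4 on the first list, and on the second it lay level with doxorubicin at the upper end. With single arrays neither order can be tested.

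**Figure D3:**
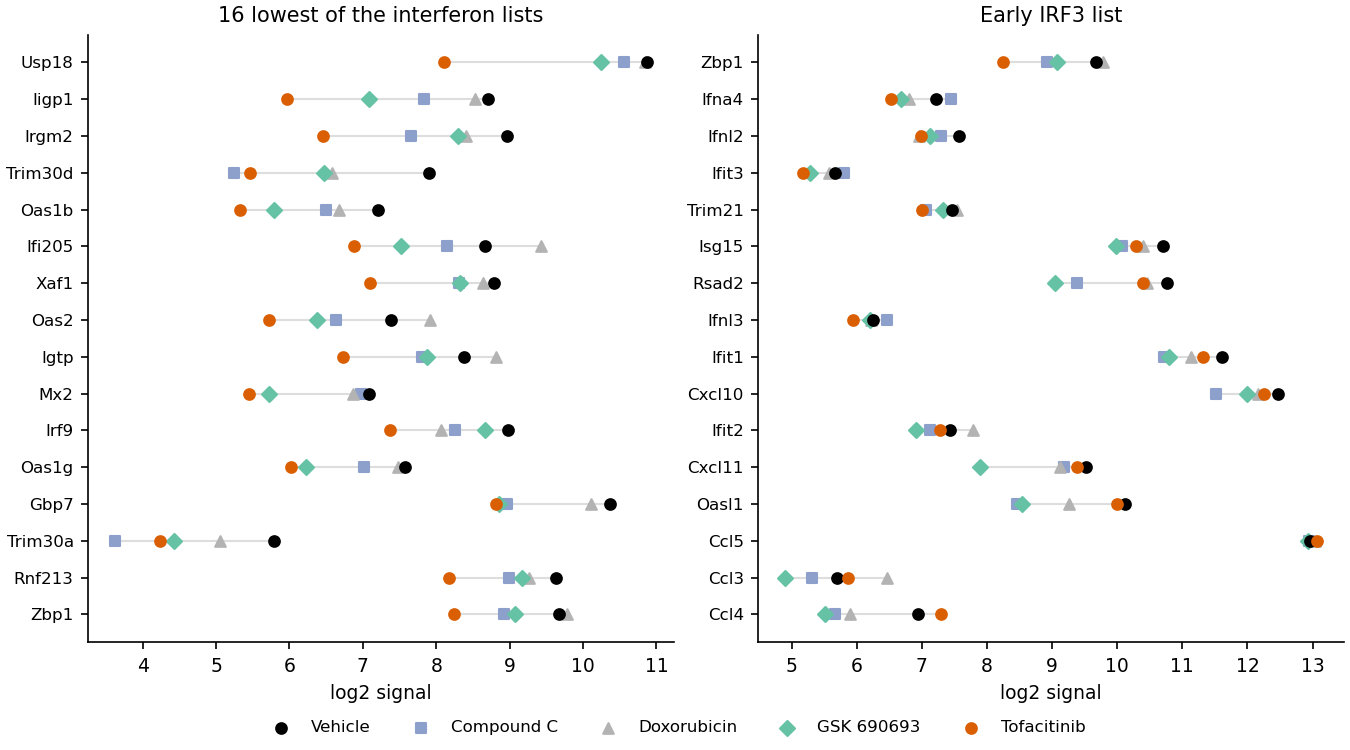
Log2 signal on the 5 arrays for the 16 genes of the interferon lists with the lowest difference (left) and for the 16 described genes of the early IRF3 list (right), 1 point per array. Tofacitinib is mostly the leftmost point on the left, as for Usp18 at 8.1, and the choice of genes by their difference contributes to that position. On the right it lies within 0.5 of vehicle for 13 of the 16 genes, as for Oasl1 at 10.0. The quartiles of all genes, -0.09 and 0.26, also lie within 0.5 of vehicle.

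The sequences before the start sites show where the response elements lie. The letters were read from RefSeq promoter windows of the mouse build GRCm38.p6, and the 250 bases before an annotated start are printed 5′ to 3′ on the strand of the gene. Capitals mark matches, on either strand, to the interferon response element written as GAAANNGAAA, the gamma-activated site written as TTCNNNGAA, and the kappa-B site written as GGGANNTTCC, where N is any base. Irgm2 and Stat2 are shown as genes that were 5.66-fold and 2.33-fold lower with tofacitinib, Steap4 and Socs3 as STAT3 targets that were lower, and Isg15 and Cxcl10 as early IRF3 genes less than 1.5-fold from vehicle.
Irgm2 (chr11:58214727-58214976, plus strand): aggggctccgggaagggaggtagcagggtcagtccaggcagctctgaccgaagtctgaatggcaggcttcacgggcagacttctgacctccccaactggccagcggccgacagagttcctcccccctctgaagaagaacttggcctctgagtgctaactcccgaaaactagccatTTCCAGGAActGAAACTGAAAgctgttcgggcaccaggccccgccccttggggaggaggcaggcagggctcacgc
Stat2 (chr10:128270248-128270497, plus strand): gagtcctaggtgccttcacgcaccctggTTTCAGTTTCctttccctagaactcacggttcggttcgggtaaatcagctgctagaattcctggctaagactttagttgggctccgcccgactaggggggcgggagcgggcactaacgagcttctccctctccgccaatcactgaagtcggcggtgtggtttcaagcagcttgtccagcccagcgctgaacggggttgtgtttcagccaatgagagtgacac
Steap4 (chr5:7960222-7960471, plus strand): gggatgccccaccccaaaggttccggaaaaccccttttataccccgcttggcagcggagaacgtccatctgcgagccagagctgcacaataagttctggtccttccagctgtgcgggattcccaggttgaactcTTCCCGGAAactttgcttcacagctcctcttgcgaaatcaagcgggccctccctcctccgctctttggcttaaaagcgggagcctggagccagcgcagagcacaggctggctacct
Socs3 (chr11:117969367-117969616, minus strand): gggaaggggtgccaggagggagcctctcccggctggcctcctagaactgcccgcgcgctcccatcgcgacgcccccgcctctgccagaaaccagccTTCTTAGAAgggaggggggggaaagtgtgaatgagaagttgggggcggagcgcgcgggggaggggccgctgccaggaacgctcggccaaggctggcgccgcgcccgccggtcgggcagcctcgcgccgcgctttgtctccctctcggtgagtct
Isg15 (chr4:156200819-156201068, minus strand): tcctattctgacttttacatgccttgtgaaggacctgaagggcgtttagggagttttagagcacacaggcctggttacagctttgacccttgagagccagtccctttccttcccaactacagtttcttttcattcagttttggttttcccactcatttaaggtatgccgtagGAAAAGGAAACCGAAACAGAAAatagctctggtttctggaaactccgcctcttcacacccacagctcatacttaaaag
Cxcl10 (chr5:92348890-92349139, minus strand): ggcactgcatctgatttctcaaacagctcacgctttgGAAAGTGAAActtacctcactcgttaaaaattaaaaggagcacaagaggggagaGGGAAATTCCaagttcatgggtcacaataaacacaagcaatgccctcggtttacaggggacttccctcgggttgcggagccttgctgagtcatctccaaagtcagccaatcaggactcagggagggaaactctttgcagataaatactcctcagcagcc
The Irgm2 stretch holds a gamma-activated site 75 to 67 bases before the start and a response element 64 to 55 bases before it. In Stat2 a single response element lies 222 to 213 bases before the start, read on the opposite strand. Steap4 and Socs3 hold a gamma-activated site each and no response element in these bases, while the same stretch of Osmr, the lowest STAT3 target, holds no match of any of the 3 motifs. Isg15 holds 3 overlapping response elements between 78 and 57 bases before its start, and Cxcl10 a response element and a kappa-B site.

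Promoter windows of 300 bases, 250 before and 50 after the start, were at hand for 9698 of the 12311 genes. A match of the response element was found in 3.56% of these genes, and in 3.44% of all 32851 windows of the RefSeq table. It was found in 12 of the 31 genes at least 2-fold lower with tofacitinib that had a window (38.7%), in 10.8% of those 1.5 to 2-fold lower, in 3.38% of those within 0.25 of vehicle and in 3.69% of those at least 1.5-fold higher. The gamma-activated site was matched in 7.86% of all genes and in 7 of the 31 (22.6%). The kappa-B site was matched in 1.65% of all genes and in 1 of the 31. In 12 windows matches of different motifs shared bases. Of the genes at least 1.5-fold lower that were on no interferon list, 11 of 130 held the response element, or 8.46%.

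Among the interferon genes the share with a response element was of like size whether or not they were lower. It was matched in 16 of 40 interferon-list genes at least 1.5-fold lower (40.0%) and in 21 of 55 that were not (38.2%). The early IRF3 list had it in 7 of 12 genes, 58.3%. Interferon-list genes with a match had a median difference of -0.46 and those without -0.365. A match is a string of letters and does not show that a factor binds there.

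**Figure D4:**
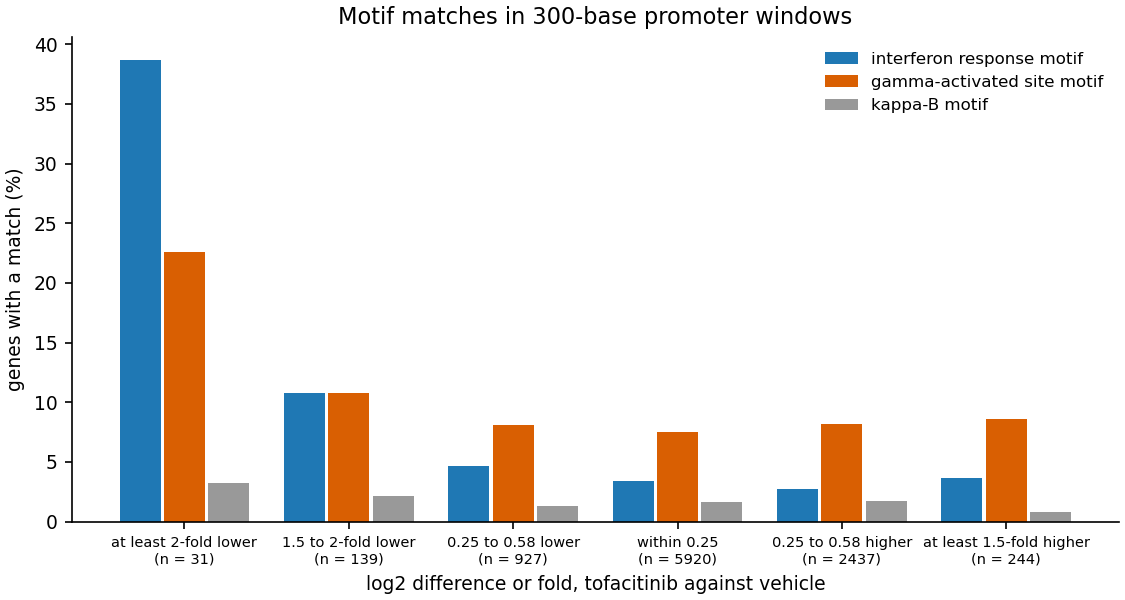
Percent of genes with at least 1 match of each motif in their 300-base promoter windows, by the difference of tofacitinib from vehicle, with the number of genes below each group. The response element stands at 38.7% in the 31 genes at least 2-fold lower and at 3.38% in genes within 0.25 of vehicle.

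STAT3 targets were lower in a smaller number of members. Of 31 described, 6 read at least 1.5-fold lower and 0 higher, and the median was -0.19. Osmr, described above, was the lowest. Steap4, a metalloreductase that inflammatory cytokines induce, read 8.58 with vehicle and 6.88 with tofacitinib, against 9.25, 9.76 and 8.21 with the other 3 compounds. Tofacitinib was thus 1.33 below the next array for Steap4. Cebpd, a transcription factor of the acute phase, read 5.59, 7.19, 4.36, 5.86 and 4.52, and Bcl3, a nuclear partner of NF-kB, read 8.45, 8.54, 6.52, 8.16 and 7.45. For Cebpd and Bcl3, as for Socs3, tofacitinib was below vehicle and doxorubicin was low as well. Lcn2, an acute-phase protein, differed by -0.51, Myc by -0.36 and Junb by -0.22, while Mcl1 differed by 0.04 and Ccnd1 by 0.31. On this list the medians of the other 3 compounds were 0.21, -0.61 and -0.03, beside the -0.19 of tofacitinib.

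NF-kB targets showed little difference as a list: of 48 described, 3 read at least 1.5-fold lower and 2 higher, and the median was -0.01. The lower ones were Bcl3, Il6 and Il1a, an alarmin cytokine, at -1.0, -0.93 and -0.68. The higher ones, Birc2 and Traf2, which both act in the ubiquitin complex of the TNF receptor, stood at 0.68 and 0.66. Of 23 chemokines, 1 was at least 1.5-fold lower and 1 higher, Cxcl9 at -0.6 and Cx3cl1 at 0.67, and the list median was 0.03, or -0.14 after median centring, where that of all genes is -0.08. Of 23 genes of MHC class I presentation, 1 was lower and 0 higher. It was Psme2, a subunit of the proteasome activator, at -0.71, and the class I genes B2m and H2-K1 read 12.86 and 9.86 with vehicle and 12.87 and 9.92 with tofacitinib. The median of this list, 0.03, turned to -0.14 after centring too.

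In the STING pathway list 1 of 25 genes was at least 1.5-fold lower, Usp18, which this list shares with the interferon genes, and the list median equalled that of all genes, 0.09 as deposited and -0.08 after centring. Cgas, the DNA sensor, and Tbk1, the kinase that STING recruits, differed by -0.07 and -0.05. Irf3 read 6.92 with vehicle, 6.42, 6.65 and 7.13 with the other compounds and 7.49 with tofacitinib, the highest of the 5 arrays. Irf7, an interferon-induced relative of Irf3, read 9.88 and 9.39.

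Genes of DNA replication and of mitosis lay above vehicle. Of 52 replication genes, 48 were above vehicle (92.3%, beside 62.73% over the whole table), 7 reached 1.5-fold higher, 0 reached 1.5-fold lower, and the median was 0.355. Of 58 mitosis genes, 52 were above vehicle, 5 were at least 1.5-fold higher and 0 lower, and the median was 0.275. After centring the medians were 0.185 and 0.105. Chaf1a, a histone chaperone of replicating DNA, read 6.13 with vehicle, 6.1, 5.92 and 6.68 with the other compounds and 7.0 with tofacitinib. Mcm5, of the replicative helicase, read 7.71, 7.94, 7.88, 8.09 and 8.36, and Ckap2l, a spindle protein, 5.77, 5.6, 5.11, 6.26 and 6.67. Tofacitinib was the highest of the 5 arrays in these 3 genes, and GSK 690693 the second. The list medians for the 4 compounds were -0.2, -0.08, 0.09 and 0.355 for replication and -0.415, -0.395, 0.005 and 0.275 for mitosis, with tofacitinib last.

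Several lists of basic cell functions lay above the median of all genes by less. The medians were 0.27 for mitochondrial ribosomal proteins, 0.23 for the proteasome and 0.23 for respiratory chain genes, the last turning to -0.06 against the median of the 3 other compounds. At least 1.5-fold higher were 1 of 68, 1 of 35 and 6 of 69 members, beside 2.66% of all genes. Immediate early genes had a median of -0.08 and lysosomal genes of 0.18, with 0 members of either at least 1.5-fold apart. Nqo1, a quinone reductase, read 6.75 with vehicle and 7.52 with tofacitinib, but the other compounds read between 7.44 and 8.25. Bmp4, a growth factor, read 8.79 with vehicle and 7.89 with tofacitinib, and between 7.72 and 8.14 with the other compounds. In Nqo1 and Bmp4 vehicle was the array that stood apart. Among reference genes Gapdh, Actb, Tbp and Hprt differed by -0.1, -0.13, 0.02 and -0.36.

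**Figure D5:**
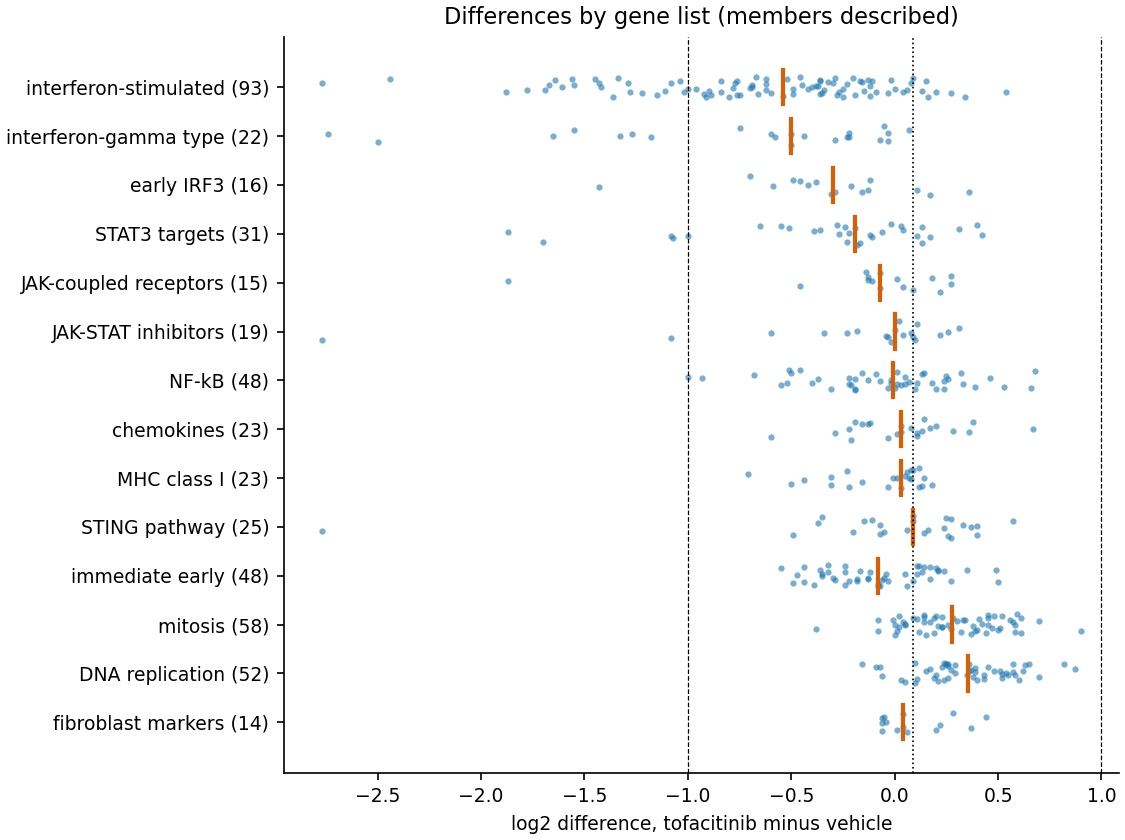
Log2 difference, tofacitinib minus vehicle, for the described members of 14 gene lists, 1 point per gene, with the number of genes in brackets. Orange bars mark list medians, the dotted line the median of all genes at 0.09, and dashed lines 2-fold; the interferon lists lie to the left and the DNA replication list to the right.

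The 15 genes at least 2-fold lower that stood on no interferon or JAK-STAT list were looked at after their values were seen, and 8 of them have no descriptive symbol or are small RNA or vomeronasal receptor genes. The lowest of all genes, F830016B08Rik, read 6.28 with vehicle and 3.27 with tofacitinib, and Gm4951 read 6.37 and 4.47. In the RefSeq gene order both are neighbours of Iigp1. Mndal, a p200 family gene that was 2.58-fold lower, neighbours Ifi204. Osr1, a transcription factor of mesenchyme, read 9.76 with vehicle, 9.21, 8.05 and 9.14 with the other compounds and 8.5 with tofacitinib. Atp5d and Ywhag differed by -1.06 and -1.05 in the probe set used, but by 0.11 in the other probe set of Atp5d and by -0.1 and -0.13 in those of Ywhag. Over the 402 genes with more than 1 probe set past the highest array median, the first 2 probe sets disagreed by a median of 0.3 and by up to 0.78 in 90% of genes. A single difference under 0.78 therefore lies within the disagreement of probe sets of one gene.

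Some of the lower genes are neighbours. Of 204 genes at least 1.5-fold lower with a place in the RefSeq order, 41 lay within 3 genes of another such gene, in 18 groups, or 20.1%. For the genes at least 1.5-fold higher the count was 37 of 294, also in 18 groups, or 12.6%. The share over all described genes was not counted, so whether neighbours are particular to the lower genes was not tested. The lower groups include Igtp with Irgm2, Gbp7 with Gbp3, Oas2 with Oas3, Parp14 with Parp9, the 3 Trim30 genes Trim30c, Trim30a and Trim30d, the schlafen genes Slfn5, Slfn2 and Slfn3, and the p200 genes Ifi209, Ifi207, Ifi204 and Mndal. Most of these groups are families of paralogs whose probes may share signal. The groups of unrelated genes were Psme2 with Irf9, Hipk2 with Parp12, Tuba8 with Usp18, Nampt with Atxn7l1, Coq5 with Gatc and Gdpgp1 with Vps33b, and the last 3 hold no gene of the interferon lists.

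The 6 genes at least 2-fold higher were of another kind, and 0 of them stood on any list of interferon or JAK-STAT genes. They held 4 small nucleolar RNA genes, chosen here after their values were seen. Snord73a read 7.32 with vehicle, 8.18, 8.24 and 8.52 with the other compounds and 8.77 with tofacitinib, and Snord22 8.83, 9.65, 9.64, 9.82 and 9.91. In both vehicle was below all 4 compound arrays, so the distance is one of the vehicle array from the rest. The other two were H2ac20, a histone gene, at 5.08 and 6.2, and Slc27a3, a fatty acid transporter, at 5.31 and 6.31. For H2ac20 Compound C and doxorubicin gave 3.89 and 3.0, below vehicle, and GSK 690693 gave 5.86, above it. For Slc27a3 these compounds gave 5.86, 6.19 and 5.83, so vehicle was below all 4 compound arrays there too. Both vehicle values lay below the lowest array median of the filter, 5.37, and both genes passed it through compound arrays.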

How the data were processed

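Gene expression was measured on 5 Affymetrix arrays, 1 per treatment. For each probe set the authors deposited 1 log2 value per array, made with Affymetrix Expression Console 1.3.1.187, per the submitters' processing notes. Summarisation, background correction and normalization are not given there or in the labels, and the log2 scale was read from the values, 1.05 to 13.18. A quantile step would have removed a shift common to most genes, and background signal left in dim values would shrink their differences. Of 41345 probe sets 23521 had 1 gene symbol in the platform annotation, 1814 had several and were named for none, and 16010 were unlisted. The array medians behind the filter ran from 5.37 to 5.44. The 5 arrays limit the precision.

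Differences, counts at 2-fold and 1.5-fold (0.585 on the log2 scale), list medians and motif matches were computed with Python 3.11.15, numpy 2.4.6 and pandas 2.3.3, and loess with statsmodels 0.14.6. The counting was tested on simulated data. The 39 gene lists hold 97 symbols without a probe set of 1 symbol, which were not analysed here. Genes named by rule are the 20 largest differences each way past 2-fold, leaving out small RNA, receptor and undescriptive symbols, all members of the JAK-STAT and early IRF3 lists, and the 5 largest differences of each other list. The comparison and the lists were chosen with earlier results of these data known. Alternatives were median centring, quantile normalization, loess, an offset of 32 on the linear scale, no filter, a filter at the 75th percentile, the mean of a gene's probe sets, 2 other references and a 3-fold threshold.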

Additional observations from a re-analysis of the deposited data

Results flagged for a closer look

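Probe sets outside the described genes also differed between the tofacitinib and vehicle arrays. Of the 1814 probe sets with several symbols, 912 passed the filter, and 10 of these read at least 2-fold lower with tofacitinib (1.1%) and 4 at least 2-fold higher (0.439%). Of the 16010 probe sets not listed with a gene, 4845 passed, and 75 read at least 2-fold lower (1.55%) and 84 at least 2-fold higher (1.73%). Among the genes described the shares were 0.414% and 0.0487%. These probe sets entered no comparison above and have no replicate either.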

How the results depend on the processing

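The 51 genes at least 2-fold lower became 87 after median centring, 32 with the offset of 32 and 15 at a 3-fold threshold, and lay between 34 and 62 under the other alternatives. The 6 genes at least 2-fold higher became 1 after centring, 2 with the offset, 17 without a filter, 29 against the median of the 4 other arrays, 155 against the median of the 3 other compound arrays and 0 at 3-fold. The 246 genes at least 1.5-fold lower became 600 after centring, 137 with the offset, 429 without a filter, 151 with the 75th percentile filter and 130 against the 4 other arrays. The 328 higher became 67, 201 and 149 after centring, quantile normalization and loess, 75 with the offset, 152 with the stricter filter and 743 against the 3 other compound arrays.

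The median of the interferon-stimulated genes was -0.71 after centring, -0.414 with the offset, and -0.34 and -0.26 against the 4 other arrays and the 3 other compound arrays. That of the interferon-gamma type genes was -0.67 after centring, -0.627 after loess, -0.398 with the offset, -0.39 without a filter, -0.965 with the stricter filter, and -0.383 and -0.32 against those references. The early IRF3 median was -0.47 after centring and turned to 0.085 and 0.185 against the same references. Centring gave -0.36 for STAT3 targets, -0.17 for JAK-STAT inhibitors and -0.18 for NF-kB targets, and loess gave -0.119 for the last. Response element matches stood in 15.9% of genes at least 1.5-fold lower, 38.7% of those at least 2-fold lower and 10.1% of the 1.5-fold set after centring.

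Signs also turned for other lists and genes. Centring moves all genes alike, and the median over all genes itself became -0.08. Sterol synthesis turned to -0.02 after centring and to -0.028 and -0.13 against the 2 references, ribosomal proteins to -0.03, -0.075 and -0.17, and NRF2 targets to -0.04, -0.015 and -0.08. ATF4 targets turned to -0.045 and -0.115 and lysosomal genes to -0.085 and -0.16 against the references, respiratory chain genes to -0.06 against the 3 compounds, and unfolded protein genes to -0.02 after centring. Against the references Atp5e turned to -0.205 and -0.27, Ndufa1 to -0.085 and -0.37, Prkaa2 to -0.225 and -0.32 and Slc7a11 to -0.065 and -0.1, while Bmp4 and Cd80 turned to 0.14 and 0.15 against 1 of them. By construction these references leave out or dilute the vehicle array; apart from that, the causes were not tested. No paired analysis was possible because each group has 1 array, and no array could be left out.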
